A study of Mus musculus with 36 samples.

Results

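The 7 CD-named tetraspanin genes Cd9, Cd63, Cd81, Cd82, Cd53, Cd37 and Cd151, were followed through 36 RNA libraries of mouse hippocampus. They were taken by gene symbol, and all 7 were found once each among the 36172 gene entries of the table. The libraries came from Cx3cr1-NuTRAP mice, in which a tamoxifen-induced cre recombinase driven by Cx3cr1, a receptor gene of microglia and of macrophages at the brain's borders, places a fluorescent tag on the ribosomes of the recombined cells. The study asked whether early and late induction differ in how well microglial RNA is recovered and in what age-related changes are seen. Tagged ribosomes and the RNA on them are pulled down by translating ribosome affinity purification (TRAP), and the input is RNA of the whole homogenate, kept before that step.

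All animals carried the same Cx3cr1-NuTRAP genotype and all were induced. The young early-induced group (6 months) held 10 inputs from 5 females and 5 males, the old early-induced group (22 months) 12 inputs from 7 females and 5 males, and the old late-induced group (22 months) 7 inputs from 5 females and 2 males. The 7 TRAP libraries, labelled Pos, come from the 7 old late-induced mice that also gave that group's inputs, so the pulldown is described here in old late-induced mice only. The induction ages in months and the cre line are not given in the sources used here. The hippocampi of both hemispheres went into each homogenate. Each input carries its own animal number in the labels.

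Tetraspanins are small membrane proteins that cross the bilayer several times and gather integrins, immunoglobulin superfamily proteins and proteases into membrane domains. Cd53 and Cd37 are best known from leukocytes, where they sit with receptors of immune cells. Cd9 and Cd81 are found on many cell types, including glia, and regulate cell fusion and membrane organisation. Cd63 cycles through late endosomes and lysosomes and is widely used as a marker of extracellular vesicles, Cd82 is an endosomal and surface member that restrains cell migration, and Cd151 binds laminin-receptor integrins.

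Library totals ran from 12.9 M to 20.4 M estimated counts. Levels are given in counts per 1000000 (CPM) on TMM-scaled library sizes. A gene was called where the edgeR quasi-likelihood test gave a Benjamini-Hochberg adjusted p under 0.05 over all genes tested. Cx3cr1 itself rose from 39.9 ± 5.08 CPM in the inputs of that group to 688 ± 134 in TRAP (SD, n = 7 each), and all 10 microglia markers were called higher in TRAP. The title index numbers of the samples run from 1 to 23 in the old early-induced group, from 25 to 38 in the old late-induced group and from 39 to 57 in the young group, so index position and group cannot be told apart. The inputs also fell into separate sets by 4 choroid plexus markers (among them Kl, Folr1 and Aqp1), which summed to between 44.7 and 183 CPM in 14 inputs and to between 1621 and 4026 CPM in the other 15. Of these 15, 6 were young, 4 old early-induced and 5 old late-induced. In the text, inputs of the first set are called choroid-low and those of the second choroid-high.

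The promoters of the pair with the largest TRAP to input ratios, Cd53 and Cd37, are shown with that of Cd81, the most abundant member. Each is the 250 bases before a transcript start that the RefSeq promoter table lists (GRCm38.p6), written 5′ to 3′ along the gene. For Cd37 and Cd63 the listed start lies inside the outermost bounds of the RefSeq gene. The same holds for the second start of Cd151 and for every Cd82 start but the first. Capitals mark GAGGAA, the core recognised by PU.1, the myeloid transcription factor encoded by Spi1, or the longer GAGGAAGT, on either strand (TTCCTC or ACTTCCTC where it is on the other strand). The Cd53 window lies at chr3:106790150-106790399, the Cd37 window at chr7:45238840-45239089, both on the minus strand, and the Cd81 window at chr7:143052500-143052749 on the plus strand.
Cd53: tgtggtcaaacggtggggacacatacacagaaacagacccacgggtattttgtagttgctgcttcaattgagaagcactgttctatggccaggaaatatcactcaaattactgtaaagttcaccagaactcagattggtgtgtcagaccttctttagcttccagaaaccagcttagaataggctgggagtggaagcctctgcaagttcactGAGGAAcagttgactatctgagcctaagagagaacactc
Cd37: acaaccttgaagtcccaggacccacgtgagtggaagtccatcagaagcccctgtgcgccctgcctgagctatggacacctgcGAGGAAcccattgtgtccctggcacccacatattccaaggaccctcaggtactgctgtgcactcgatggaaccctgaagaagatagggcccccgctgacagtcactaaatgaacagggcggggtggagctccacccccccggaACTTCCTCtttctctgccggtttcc
Cd81: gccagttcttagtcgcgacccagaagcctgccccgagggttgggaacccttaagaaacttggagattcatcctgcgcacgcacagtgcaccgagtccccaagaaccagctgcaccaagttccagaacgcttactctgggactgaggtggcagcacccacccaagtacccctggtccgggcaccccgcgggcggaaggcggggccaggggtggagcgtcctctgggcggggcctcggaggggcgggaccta

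GAGGAA stood from 39 to 34 bases before the Cd53 start. Cd37 had 2 matches, from 168 to 163 bases and, as part of GAGGAAGT on the other strand, from 25 to 18 bases before the start. No match to these letters was found in the Cd81 window. Cd63 had GAGGAA from 244 to 239 and, on the other strand, from 59 to 54 bases before its start. The third of the 4 starts of Cd82 held GAGGAA on both strands and GAGGAAGT from 225 to 218 bases before it, while the windows of the other starts of Cd82, of the Cd9 start and of both Cd151 starts held neither. Of 32851 starts listed by RefSeq, 23.3% held GAGGAA within 250 bases and 2.44% held GAGGAAGT, so the shorter string is common. The G and C content was 45.2% for Cd53, with 2 CG pairs, 48.8% and 6 for Cd63, 58.8% and 8 for Cd37, 61.6% and 16 for Cd9 and 65.6% and 16 for Cd81. It was 49.6% to 64.4% over the 4 starts of Cd82 and 58% and 62.4% for those of Cd151. The median over all starts was 52.4% with 6 CG pairs.

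The first comparison asked which members the pulldown of old late-induced animals enriched. All 7 were called higher in TRAP than in the inputs of the same animals, where 30.4% of the 14596 genes tested were called higher and 28.8% lower. Their median log2 fold change was 1.31, against -0.02 over all genes tested. The members fell into 2 tiers. Cd53 and Cd37 rose by amounts within the range of the 10 microglia markers, whose log2 fold changes ran from 2.93 to 4.41, and the other 5 members rose by less than every one of these markers. In bulk RNA, more cells of a type and more RNA per cell cannot be told apart.

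Cd53, a leukocyte tetraspanin, stood at 5.65, 8.55 and 9.97 CPM (lowest, median and highest) in the 7 inputs and at 120, 136 and 202 CPM in the 7 TRAP libraries. All TRAP libraries thus lay far above all inputs. Its log2 fold change was 4.20 ± 0.14 (SE, edgeR adjusted p = 7.61e-14), higher in 7 of 7 animals, with TRAP to input ratios within an animal from 15.7 to 23.8. Cd37, which is known for restraining signalling in lymphocytes, ran from 5.84 through 6.59 to 8.78 CPM in the inputs and from 81.6 through 94.5 to 140 CPM in TRAP. These groups did not overlap either. Its log2 fold change was 3.82 ± 0.12 (SE, edgeR adjusted p = 7.59e-14), with ratios from 11.9 to 18.2. For comparison, the ratio of Cx3cr1 ran from 13.7 to 21.5. In the inputs of old late-induced animals these values rest on few counts, from 94 to 174 for Cd53 and from 97.1 to 156 for Cd37 per library, against at least 1507 and 1057 in TRAP.

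Cd9 had the next largest ratio. It stood at 50.2, 61.6 and 74.6 CPM in the inputs and at 173, 267 and 467 CPM in TRAP, with no overlap. The log2 fold change was 2.15 ± 0.18 (SE, edgeR adjusted p = 2.53e-08). Cd81, a broadly expressed member, went from 284, 312 and 362 CPM in the inputs to 522, 573 and 808 CPM in TRAP. The log2 difference was 0.97 ± 0.10 (SE, edgeR adjusted p = 2.22e-07), again with no overlap.

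Among the endosomal members, Cd63 ran from 107 through 138 to 147 CPM in the inputs and from 204 through 284 to 564 CPM in TRAP. Its log2 fold change was 1.31 ± 0.20 (SE, edgeR adjusted p = 3.46e-05). Cd82 went from 36.4, 44.7 and 53.1 CPM to 84.3, 86.4 and 130 CPM, or by 1.12 ± 0.12 on the log2 scale (SE, edgeR adjusted p = 5.19e-07). Cd151, the integrin partner, was the least enriched, from 20.1, 21.9 and 23.8 CPM to 30.8, 35.8 and 49.9 CPM. Its log2 fold change was 0.81 ± 0.09 (SE, edgeR adjusted p = 1.12e-06). In each of these 3 genes, as in the other members, every TRAP library was above every input. For how many of all genes this held was not counted. Border macrophage markers (6 of 6) and endothelial markers (4 of 4, with log2 fold changes from 1.07 to 1.70) were also called higher in TRAP. Their summed levels were 97.9 to 222 and 119 to 192 CPM there, against 7.15 to 17.9 and 46.5 to 72.6 CPM in the inputs, and their part in the members' values was not tested. The B cell marker Ms4a1 was at 0 in all 7 TRAP libraries, whereas Cd79b was called higher in TRAP, at 4.44 ± 0.42 CPM against 0.29 ± 0.15 CPM in the inputs (SD, n = 7 each), or by 3.91 ± 0.24 on the log2 scale (SE, edgeR adjusted p = 3.46e-10). The part of B cells in the members' values was not tested. T cell and neutrophil lists summed to at most 2.22 and 0.78 CPM in TRAP.

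**Figure D1:**
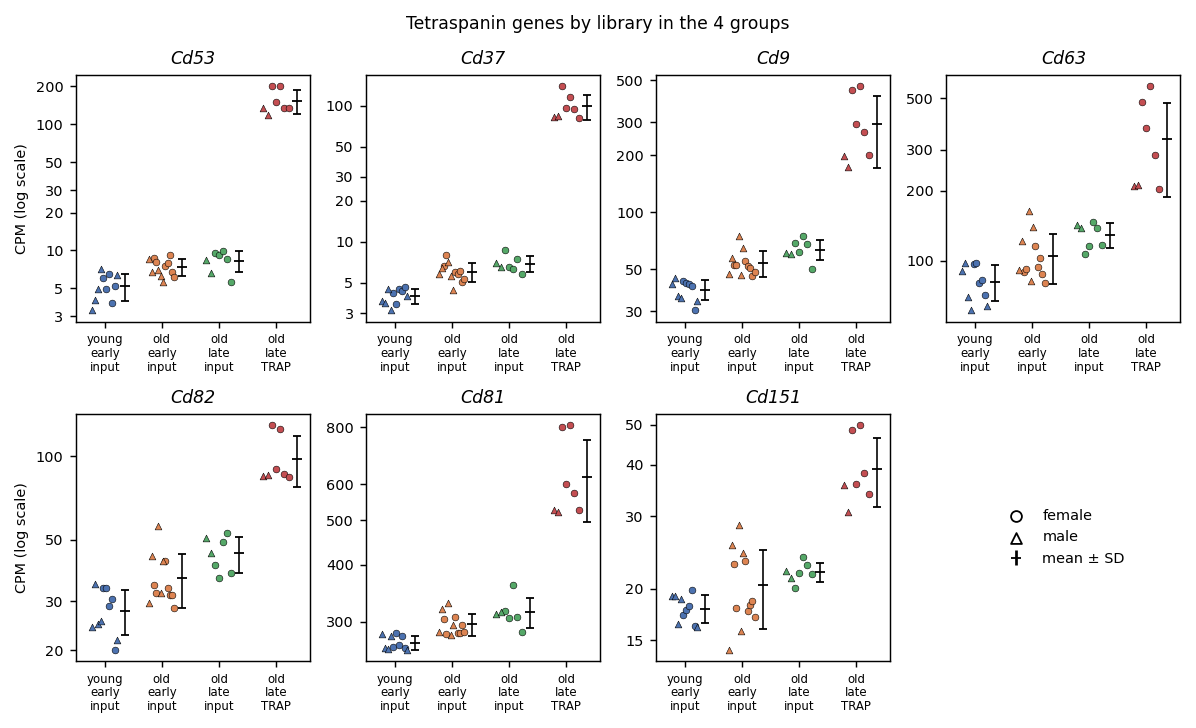
CPM on a log axis for each of the 7 genes in every library of the 4 groups, with circles for females, triangles for males and a bar for the mean ± SD. The TRAP points lie above all old late-induced inputs in every panel, farthest for Cd53 and Cd37, and all old inputs lie above all young inputs in the panel of Cd9.

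The animals differed in how strongly Cd63 and Cd9 were enriched, and less so for Cd53 and Cd37. The ratio of TRAP to input for Cd63 was 1.48 and 1.53 in the 2 males and 4.52, 3.22, 3.83, 2.04 and 1.74 in the 5 females (replicates 3 to 7). For Cd9 it was 3.24 and 2.85 in the males and 6.42, 4.77, 6.26, 3.92 and 4.00 in the females. Within-animal log2 ratios had an SD of 0.66 for Cd63, 0.45 for Cd9 and 0.36 for Cd82, against 0.23 for Cd53, 0.21 for Cd37 and 0.22 for Cd81 (n = 7 each). The 2 TRAP libraries with the highest levels of all 7 members, replicates 3 and 5, also had the highest microglia marker sums, 11515 and 11109 CPM against 7814 to 8737 CPM in the other 5. They also had the highest oligodendrocyte sums, 2562 and 2750 CPM against 1089 to 2137 CPM, and the lowest neuron sums, 3010 and 3020 CPM against 3429 to 4006 CPM. Their astrocyte sums were 1640 and 1940 CPM against 997 to 1707 CPM. The part of these differences in the members' levels was not tested.

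**Figure D2:**
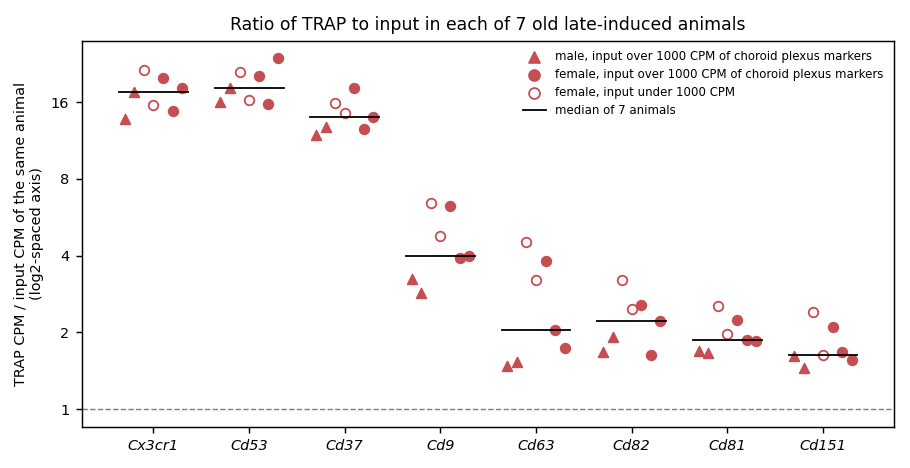
TRAP CPM divided by input CPM of the same animal, on a log2-spaced axis, for Cx3cr1 and the 7 genes in 7 old late-induced animals, with a line at the median. Triangles are males, and open symbols are animals whose input was choroid-low. Cd53 and Cd37 lie near Cx3cr1, and Cd63 spreads from 1.48 to 4.52.

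Sex was compared within this pulldown, a test chosen after the values were seen. The interaction of fraction and sex called none of the 7 members and 0 (0%) of 14596 genes tested with edgeR, where 962 genes had an unadjusted p under 0.05 and DESeq2 and limma voom called 1 gene each. The log2 fold change of TRAP against input of Cd63 differed by -1.03 ± 0.37 (males minus females, SE, edgeR adjusted p = 0.74), and that of Cd9 by -0.77 ± 0.35 (SE, edgeR adjusted p = 0.74), with only 2 males. This fit, like that of TRAP against input, held no term for the animal, so the 2 libraries of each animal were treated as independent. Both males had choroid-high inputs.

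The order of the members was compared per length, as CPM per kilobase of 1 reference transcript. In the young inputs Cd81 led with 176 ± 6.24, followed by Cd63 with 73.4 ± 12.9, Cd9 with 31.8 ± 3.89, Cd82 with 15.2 ± 2.83, Cd151 with 9.60 ± 0.73, Cd37 with 3.28 ± 0.42 and Cd53 with 3.01 ± 0.73 (SD, n = 10). Neighbours in that order were separated by more than their SDs except Cd37 and Cd53. Both old input groups had the same order. In TRAP the order became Cd81 at 406 ± 83.2, Cd63 at 300 ± 131, Cd9 at 238 ± 97.5, Cd53 at 88.5 ± 19.5, Cd37 at 80.7 ± 17.4, Cd82 at 53.8 ± 11.2 and Cd151 at 20.9 ± 3.93 CPM per kilobase (SD, n = 7). There the SD ranges met between Cd81 and Cd63, between Cd63 and Cd9, between Cd53 and Cd37 and between Cd37 and Cd82. Cd53 and Cd37 together held 2.01% of the summed level of the 7 members per length in the young inputs, 2.48% in the old late-induced inputs and 14.2% in TRAP, while the share of Cd81 was 56.4%, 48.8% and 34.2%. With the union of coding exons as length, Cd53 and Cd37 changed places in the inputs, and in TRAP Cd9 stood above Cd63 and Cd82 above Cd37.

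The second comparison concerned age. Against the young inputs, 6 of 7 members were called higher in the old early-induced inputs, where 13% of 14948 genes tested were called higher and 12.6% lower. All 7 were called higher in the old late-induced inputs, where 17% were called higher and 17.5% lower. The median log2 fold change of the members was 0.40 and 0.70, against 0.01 over all genes tested in both. The 2 comparisons share the 10 young inputs. None of the members was called lower.

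The leukocyte pair rose in both. Cd37 ran from 3.14 through 4.13 to 4.66 CPM in the young inputs, from 4.48 through 5.92 to 8.01 in old animals induced early and from 5.84 through 6.59 to 8.78 in those induced late. Of the 12 old early-induced inputs, 11 lay above every young input, and all 7 old late-induced inputs did. The log2 fold changes were 0.59 ± 0.09 (SE, edgeR adjusted p = 2.59e-05) and 0.79 ± 0.11 (SE, edgeR adjusted p = 1.71e-06), the largest of the 7 members in both comparisons. Cd53 ran from 3.34 through 5.07 to 7.18 CPM, from 5.6 through 7.29 to 9.13 CPM and from 5.65 through 8.55 to 9.97 CPM in the same order of groups. The ranges overlapped in both comparisons, and every old input lay above the young median. Its log2 fold changes were 0.49 ± 0.12 (SE, edgeR adjusted p = 0.00311) and 0.65 ± 0.14 (SE, edgeR adjusted p = 5.47e-04).

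How many of all genes had no overlap was not counted, and among the members Cd9 was the only one without overlap in both comparisons. It stood at 30.3, 41.2 and 44.9 CPM (lowest, median and highest) in the young inputs, at 46.3, 52.3 and 75.5 CPM in the old early-induced and at 50.2, 61.6 and 74.6 CPM in the old late-induced ones, so that all 19 old inputs lay above all 10 young ones. The log2 fold changes were 0.48 ± 0.08 (SE, edgeR adjusted p = 6.15e-05) and 0.73 ± 0.09 (SE, edgeR adjusted p = 7.66e-07). Cd81 changed least in proportion but varied little between animals. It ran from 261 through 265 to 284 CPM in the young inputs, from 280 through 290 to 330 in the old early-induced and from 284 through 312 to 362 in the old late-induced inputs. The coefficient of variation was 3.54% in the young inputs, against 24.2% for Cd53. The value for Cd53 rests on only 58 to 118 counts per young library, against 3370 to 4894 for Cd81. The log2 fold changes of Cd81 were 0.14 ± 0.03 (SE, edgeR adjusted p = 0.00267) and 0.24 ± 0.04 (SE, edgeR adjusted p = 3.32e-05), and the old late-induced inputs did not overlap the young ones.

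Cd63 and Cd82 moved by like amounts. Cd63 ran from 61.3 through 81.4 to 98.4 CPM in the young inputs, from 80.7 through 93.2 to 164 in the old early-induced and from 107 through 138 to 147 in the old late-induced inputs. Only the late-induced inputs were all above the young ones. The log2 fold changes were 0.38 ± 0.11 (SE, edgeR adjusted p = 0.0107) and 0.70 ± 0.12 (SE, edgeR adjusted p = 6.88e-05). Cd82 went from 20.1, 27.2 and 34.5 CPM to 28.3, 33 and 56.2 CPM and to 36.4, 44.7 and 53.1 CPM, again with overlap in the early-induced inputs only. Its log2 fold changes were 0.40 ± 0.11 (SE, edgeR adjusted p = 0.00689) and 0.72 ± 0.12 (SE, edgeR adjusted p = 5.34e-05). Cd151 stood at 16.2, 18 and 19.9 CPM, at 14.2, 18.5 and 28.5 CPM and at 20.1, 21.9 and 23.8 CPM. It was called in the late-induced comparison, at 0.32 ± 0.10 on the log2 scale (SE, edgeR adjusted p = 0.0149), and not in the early-induced one, with 0.20 ± 0.09 (SE, edgeR adjusted p = 0.10), where 5 old inputs lay above and 2 below all young inputs. Without old early-induced replicate 1, the lowest for this gene, the early-induced value was 0.24 (edgeR adjusted p = 0.0289). In females alone, 3 of the 6 early-induced calls were lost: Cd63 at 0.14, Cd81 at 0.11 and Cd82 at 0.19, with edgeR adjusted p from 0.17 to 0.40. Over all genes 1198 were called in females alone, against 3826 with both sexes. Of these females 4 of 5 young and 1 of 7 old early-induced had choroid-high inputs, and the part of this in the lost calls was not tested.

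**Figure D3:**
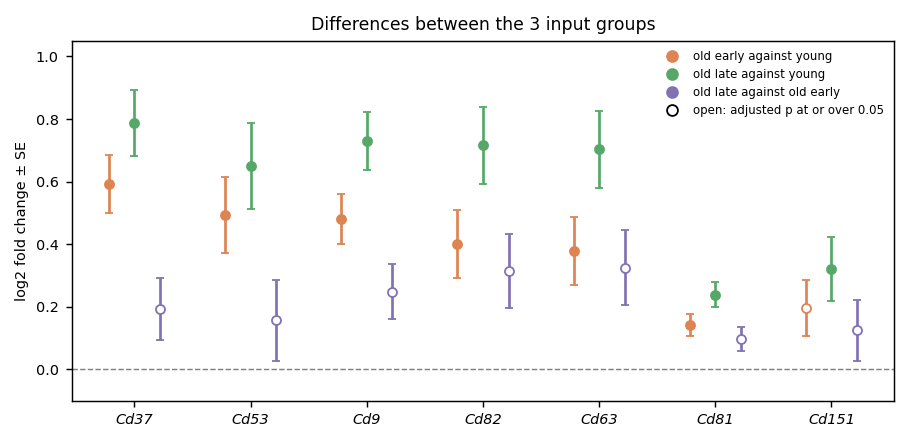
Log2 fold change ± SE of each gene for the 3 comparisons between input groups, filled where the edgeR adjusted p was under 0.05. Filled points run from 0.14 for Cd81 to 0.79 for Cd37, and all points for late against early induction are open.

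Markers of several cell types moved with age as well. Microglia markers were called higher in 9 of 10 genes in the old early-induced inputs and in 10 of 10 in the old late-induced ones, with log2 fold changes from 0.09 to 0.63 and from 0.23 to 0.71. Their sum was 346 to 392 CPM in the young inputs, 421 to 506 CPM with early and 451 to 590 CPM with late induction in old animals. In the old late-induced comparison Cd37 (0.79 ± 0.11), Cd9 (0.73 ± 0.09) and Cd82 (0.72 ± 0.12, SE) lay above the highest of the 10, but by less than their SE. In the old early-induced comparison 0 members lay above all 10. Oligodendrocyte markers were called higher in 4 of 5 and 5 of 5 genes, with sums of 2577 to 4073, 3289 to 4833 and 3513 to 5966 CPM in the 3 groups. Astrocyte markers were called higher in 2 of 5 genes in both. Border macrophage markers were not called higher in either (0 of 6), and 1 of 6 was called lower in the old late-induced inputs. Of the oligodendrocyte precursor markers, 1 of 4 was called higher and 2 lower in both. Endothelial markers were called higher in 1 of 4 genes in both, and neuron markers in 1 of 4 and 0 of 4. The 1 T cell marker tested (0.94) and 1 of 2 neutrophil markers (0.78 and 1.25) were called higher in the old early-induced inputs. These values lay above those of all 7 members. In the old late-induced inputs neither list had a call (0.98, and 0.25 and 1.02). The T cell sum was at most 2.38 CPM in any input, and no B cell marker passed the filter for the age tests. Of the 3 blood markers measured, 1 was called higher in the old early-induced inputs and all 3 in the old late-induced ones, with log2 fold changes from 1.41 to 1.66, above those of all 7 members. Their sum was 96.5 to 223 CPM in the young, 83.8 to 1414 CPM with early and 183 to 449 CPM with late induction in old animals. The 1414 CPM belonged to old early-induced replicate 5, which also had the highest Cd9, Cd63, Cd82 and Cd151 of the 29 inputs. The same library had the highest choroid plexus (4026 CPM), endothelial (76.4 CPM) and neutrophil (16.4 CPM) sums of the 29 inputs. Mural markers were called higher in 2 of 3 genes tested in both, with sums of 27.5 to 39.1, 32.9 to 45.2 and 34.9 to 42.8 CPM. Acta2 of that list was at 0 throughout. No other marker of these lists was at 0 in a whole group of inputs. The part of these lists in the members' values was not tested.

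Choroid plexus markers were called in neither age comparison (0 of 4), yet they moved with some members between libraries of the same group. After group means and sex were removed, Pearson's r with the summed markers over the 29 inputs was 0.87 for Cd63, 0.82 for Cd82, 0.67 for Cd151, 0.64 for Cd9 and 0.43 for Cd81, against -0.10 for Cd37 and -0.40 for Cd53. The markers of some other cell types also moved with these members. With the neuron sum r was -0.79 for Cd82, -0.74 for Cd9, -0.69 for Cd63, -0.58 for Cd151 and -0.57 for Cd81, and with the blood sum it was 0.63, 0.62, 0.57, 0.62 and 0.54 in the same order. Without the 2 inputs farthest from the median blood sum, the blood values were 0.42, 0.39, 0.29, 0.54 and 0.50. In the same order of genes r was 0.51, 0.41, 0.57, 0.65 and 0.31 with the border macrophage sum. With the endothelial sum it was 0.43, 0.45, 0.47, 0.52 and 0.59. With the microglia sum it was -0.02, 0.23, -0.06, 0.05 and 0.37, against 0.50 for Cd53 and 0.26 for Cd37. All these values are descriptions and share the libraries and their scaling. In the young inputs Cd63 was 61.3 to 71.5 CPM in the 4 choroid-low and 80.4 to 98.4 CPM in the 6 choroid-high libraries. In the old early-induced inputs it was 80.7 to 103 CPM in the 8 choroid-low and 116 to 164 CPM in the 4 choroid-high libraries. The sets did not overlap in either group.

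The age comparison was therefore also made in the 14 choroid-low inputs alone (4 young, 8 old early-induced and 2 old late-induced), a choice made after seeing the data. Cd9 ran from 30.3 to 36, from 46.3 to 52.5 and from 61.6 to 69.3 CPM in the 3 groups, Cd63 from 61.3 to 71.5, from 80.7 to 103 and from 107 to 116 CPM, and Cd82 from 20.1 to 25.6, from 28.3 to 34.3 and from 36.4 to 40.5 CPM. For these 3 genes no input of one group overlapped another, with only 2 old late-induced inputs. How many of all genes behaved in this way was not counted. The sexes were uneven, with 1 female and 3 males young, 6 females and 2 males old early-induced, and 2 females old late-induced. In old early-induced against young, 3 of 7 members were called, and 1234 genes in all. These members were Cd9 at 0.55, Cd63 at 0.39 and Cd82 at 0.49 (log2, edgeR adjusted p = 9.72e-05, 9.22e-04 and 0.00123). Cd81 at 0.11, Cd53 at 0.40 and Cd37 at 0.50 no longer passed (edgeR adjusted p = 0.096, 0.14 and 0.071), and Cd151 stood at -0.02 (edgeR adjusted p = 0.94). In old late-induced against young, 6 of 7 members were called, and 1878 genes in all, with Cd151 the exception at 0.19 (edgeR adjusted p = 0.47). With the choroid plexus sum as a covariate in all 29 inputs, all 7 were called in both, Cd151 at 0.23 in the old early-induced comparison (edgeR adjusted p = 0.0109). Without the covariate 25.6% and 34.5% of all genes tested were called in these comparisons, and the share with it is not given here.

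**Figure D4:**
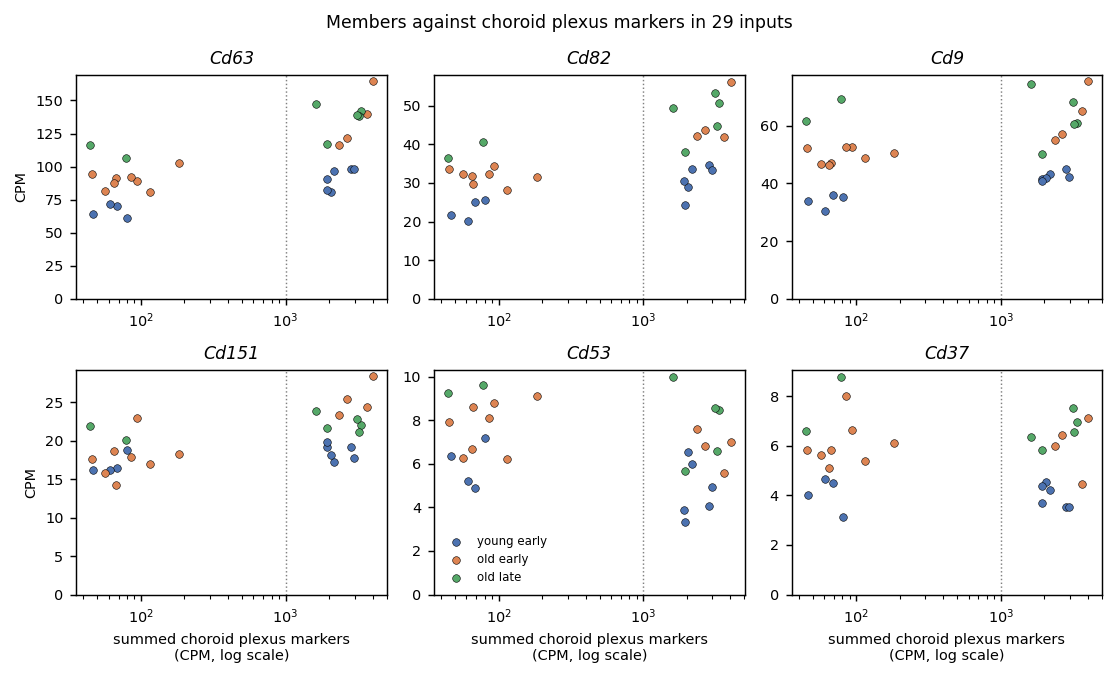
CPM of 6 of the 7 genes against the summed choroid plexus markers (log axis) in the 29 inputs, coloured by group, with a dotted line at 1000 CPM between the sets. Cd63 and Cd82 are higher to the right of the line within the young and the old early-induced inputs, while Cd53 and Cd37 are not.

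The third comparison set late against early induction at the same age. None of the 7 members was called, where 0.0334% of 14948 genes tested (5 genes) were called with edgeR and 1736 had an unadjusted p under 0.05. DESeq2 called 58 genes and limma voom 4, none of them a member. All 7 log2 fold changes were above 0, from 0.10 ± 0.04 for Cd81 and 0.12 ± 0.10 for Cd151 to 0.31 ± 0.12 for Cd82 and 0.33 ± 0.12 for Cd63 (SE, edgeR adjusted p from 0.27 to 0.66), so the 2 age comparisons were not shown to differ for any member. In females alone Cd63 was called at 0.41 (edgeR adjusted p = 0.0342), and in the choroid-low inputs Cd9 was called at 0.41 (edgeR adjusted p = 0.0116), with 2 late-induced libraries. Of the females 3 of 5 late-induced and 1 of 7 early-induced old animals had choroid-high inputs. Over all inputs the choroid plexus markers were higher with late induction by 0.83 to 1.11 on the log2 scale, with 0 of 4 called. Their part in the call of Cd63 was not tested.

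Sex made no difference that passed the test. Over the 29 inputs 0 of 7 members and 0.174% of 14948 genes (26 genes) were called, 1635 at an unadjusted p under 0.05. Male minus female log2 differences of the members ran from -0.13 ± 0.11 for Cd53 to 0.13 ± 0.10 for Cd63 (SE). The interaction of age and sex in the 22 early-induced inputs called none of the 7 members and 0 (0%) of 14547 genes tested with edgeR, where 2272 had an unadjusted p under 0.05, limma voom called 0 genes and DESeq2 called 42. The age difference of Cd63 was larger in males by 0.51 ± 0.21 and that of Cd82 by 0.45 ± 0.21 on the log2 scale (SE, edgeR adjusted p = 0.27 and 0.31). Among the males 3 of 5 old early-induced and 2 of 5 young animals had choroid-high inputs.

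Across the 29 inputs, with group means and sex removed, Cd9, Cd63 and Cd82 varied together, with Pearson's r from 0.81 to 0.85 between them. Cd151 followed them at 0.68 to 0.72. Cd53 and Cd37 did not join this set: their r with Cd9, Cd63 and Cd82 lay between -0.26 and 0.16, and with each other it was 0.28. Among 12954 genes, those most like Cd9 were Ctsd (r = 0.92), which encodes the lysosomal protease cathepsin D, Pbxip1 (0.86) and Lgals3 (0.86), which encodes galectin-3. For Cd63 they were Bsg (0.93), Fxyd1 (0.93) and Tnfaip8 (0.92), for Cd82 Npc2 (0.92), a lysosomal cholesterol carrier, Pbxip1 (0.91) and Fxyd1 (0.91), for Cd151 Vtn (0.83), Serping1 (0.83) and Copz2 (0.81), and for Cd81 Rcn3 (0.83), Arpc1b (0.79) and Aldh9a1 (0.75). The values were lower for Cd53, with Ly86 (0.70), a partner of a Toll-like receptor homologue, Akap7 (0.64) and Rab31 (0.64), and for Cd37, with Cxcr2 (0.72), Crlf2 (0.68) and Akr7a5 (0.67). All these r values share the 29 libraries and were picked as the highest.

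Enrichment in the pulldown was not shared across the wider family. The members and lists were chosen with earlier results of these data known, so this contrast is a description. Of 24 other tetraspanin genes 19 were tested in TRAP against input, of which 6 (against 30.4% of all genes) were called higher and 13 (against 28.8%) lower, with a median log2 fold change of -0.29. The largest values were Tspan32 at 4.75 ± 0.26, a hematopoietic member at 5.24 CPM in TRAP and 0.19 CPM in the inputs, Upk1b, a uroplakin, at 3.76 ± 0.17, Tspan4 at 1.99 ± 0.11, Tspan14 at 1.76 ± 0.09 and Tspan11 at -1.38 ± 0.36 (SE). Tspan14 belongs to the TspanC8 group, which escorts the protease Adam10. It was the 1 of 5 TspanC8 genes tested that was higher, and the other 4 were lower. With age, 4 of 18 were higher and 1 lower in the old early-induced inputs, and 5 higher and 1 lower in the old late-induced inputs, beside 13% higher and 12.6% lower and 17% higher and 17.5% lower over all genes. The medians were 0.06 and 0.11. Upk1b rose by 1.15 and 0.76 on the log2 scale, Tspan15 by 0.34 and 0.33 and Tspan14 by 0.19 and 0.23, whereas Tspan18 changed by -0.37 and -0.68. Tspan13 (0.12) was called in the first and Rom1 (0.60) in the second comparison.

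Among 15 genes for tetraspanin partners and vesicle release, 13 were tested, of which 8 were called higher and 2 lower in TRAP, beside 30.4% and 28.8% of all genes, with a median log2 fold change of 0.60. The integrin chains Itga6 (2.60 ± 0.10) and Itgb1 (1.43 ± 0.09) rose, while Itga3, another chain of laminin receptors, fell (-0.34 ± 0.12), as did Flot2 (-0.12 ± 0.05), both named after their values were seen. Higher too were Rab27a (1.50 ± 0.11), a small GTPase of vesicle release, Ptgfrn (1.44 ± 0.08), which binds Cd9 and Cd81, and Adam10 (0.89 ± 0.07), the errors being SE. With age 3 and 4 of 13 were called higher, beside 13% and 17% of all genes, and none lower. These were Tsg101 (0.16), Igsf8 (0.12) and Flot2 (0.10) in the old early-induced inputs and Itgb1 (0.20), Tsg101 (0.19), Flot1 (0.15) and Igsf8 (0.13) in the old late-induced ones. Their median log2 fold changes were 0.05 and 0.07.

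**Figure D5:**
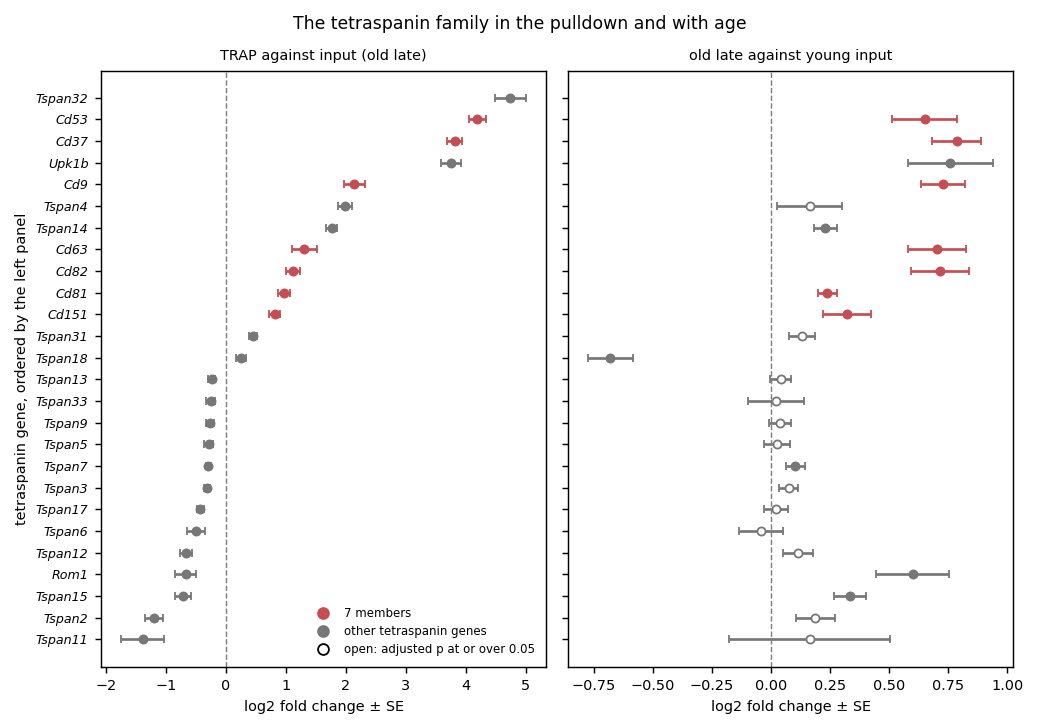
Log2 fold change ± SE of 26 tetraspanin genes in TRAP against input (left) and of 25 of them in old late-induced against young inputs (right), with the 7 members in red and open symbols where the edgeR adjusted p was not under 0.05. All 7 members lie to the right of 0 on both sides, and 13 of the other genes lie to the left of 0 in TRAP. Both comparisons use the old late-induced inputs.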

How the data were processed

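PolyA RNA of mouse hippocampus was sequenced. The authors' table holds estimated counts, 1 row per gene, marked raw per the file headers; 77.4% of its nonzero values were not whole. The submitters' processing notes name mm10 and DESeq2. The aligner, counter and strand handling are not given in the sources used here, so reads that overlapping genes share are uncertain: the opposite-strand entry R74862 shares 619 bases with Cd81 and stood at 3.36 to 6.58 CPM, and Gm10804, which overlaps Cd82, was at 0. RefSeq tables of GRCm38.p6 held 32891 of the gene identifiers, 99.98% on the same chromosome, and supplied the promoters.

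Groups, sex and animal came from the labels. Library totals, 12.9 M to 20.4 M, put at least 51.7 estimated counts behind each member in each library. Replicates differed beyond sampling noise in every group (chi-square per degree of freedom at least 3.71). Estimated counts were rounded and tested with edgeR 4.0.16 in R 4.3.3 (filterByExpr with a minimum count of 10, TMM, glmQLFTest), with sex as a covariate, TRAP on 14 libraries and the input contrasts on 29. CPM used TMM library sizes, and correlations log2 CPM (prior count 2). Libraries of the same animal deviated together in all 7 pairs (r from 0.292 to 0.439, median -0.085 between animals); the animal numbers come from the labels. The fit was checked on simulated data. Alternatives were other scalings, filters, tools (DESeq2 1.42.0, limma voom 3.58.1), covariates and subsets.

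Named were the 7 members, up to 5 called genes of largest change per list and comparison, and the 3 genes most like each member. The members and lists were chosen with earlier results of these data known. Results of 1 gene are not reported here.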

Additional observations from a re-analysis of the deposited data

Results flagged for a closer look

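Cd81 in old late-induced input replicate 5 stood at 361.758 CPM, apart from the next highest input of that group at 316.471 CPM. Its gap was 0.586 of the group's whole range, against a critical value of 0.568 for 7 samples. The check covered 28 sets of values: the members in the young inputs, the old late-induced inputs and TRAP, and their within-animal TRAP to input ratios. The old early-induced group, with 12 inputs, was not checked. Only this 1 of the 28 sets held a value that stood apart by this measure, which chance alone reaches in about 1 in 20 sets. Old late-induced input replicate 5, from a female, had the highest marker sums of the 29 inputs for microglia (590 CPM), oligodendrocytes (5966 CPM) and astrocytes (2172 CPM). Without it, Cd81 was still called higher in the old late-induced than in the young inputs, with a log2 fold change of 0.20 against 0.24 with it.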

How the results depend on the processing

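In TRAP against input none of 161 values of the members over 23 alternatives lost its call or direction; leaving out each library kept 7 of 7 members called, with 8150 to 8720 genes in all. With the animal as replicate block, which pairs the libraries of each animal, 7 of 7 members were called, from 0.80 for Cd151 to 4.20 for Cd53 (log2), and the block changed no call of a member. With upper quartile factors the median of all genes moved to -0.16 and with library size alone to -0.13, and all 7 members lay at least 0.83 above it under both.

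Between old early-induced and young inputs, 9 of 231 values changed. Females only gave 3 members and 1198 genes, with Cd63 (0.14), Cd81 (0.11) and Cd82 (0.19) not called, and the choroid-low inputs 3 members and 1234 genes, with Cd151 at -0.022. Leaving out each library gave 6 to 7 members and 3294 to 4011 genes. In old late-induced against young inputs females only gave 2787 genes and the choroid-low inputs 1878, and leaving out each library 7 to 7 members and 4352 to 5314 genes. The cause of these changes was not tested, but both subsets hold fewer samples.

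Late against early induction rested on 5 genes. It gave 58 genes with DESeq2, 182 with 1 member (Cd63) in females only, 0 with only the 2 groups in the fit, 3 with the choroid plexus covariate, and 102 with 1 member (Cd9) in the choroid-low inputs. Leaving out each library gave 0 to 0 members and 0 to 164 genes, the most without old early-induced replicate 5 (164), and also 76 without replicate 2, 29 without replicate 10, and 0 without old late-induced replicate 2, 3 or 4. The sex contrast gave 12 genes in early-induced inputs and 17 to 32 (0 to 0 members) with each library left out, where Cd9 ran from -0.0052 (without old early-induced replicate 5) to 0.069. The interaction of age and sex gave 42 genes with DESeq2, and that of fraction and sex 1 with DESeq2 and 1 with limma voom. CPM on plain library totals moved no group mean by more than 1 SD. The order of members kept 5 of 7 ranks in the inputs with CPM without length and 5 with exon unions, and 3 in TRAP with exon unions. Depth limits Cd53 and Cd37 in the inputs most, and with 2 males in the old late-induced group sex differences there are hardly measurable. The choroid-low subset and covariate, the fraction by sex test, limma voom for the age by sex test and the exon union were chosen after seeing the data.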
